A study of Saccharomyces cerevisiae W303 with 28 samples.

Results

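Cohesin-poor valleys were the windows of 1 kb on long chromosome arms of budding yeast with the least Scc1, the kleisin of the cohesin ring, in 1 immunoprecipitate (IP) of wild-type cells without a DNA break. Windows were taken from chromosomes 2, 4, 7, 8, 10, 11, 13, 14, 15 and 16. A window was eligible when its whole-cell extract (input) signal was 0.25 to 4 times the median of that extract, when it lay over 50 kb from both chromosome ends, and when it lay over 30 kb from the chromosome's centre. The centre was the highest running mean of 21 windows in the same IP and stands in for the centromere. The lowest 10% of the eligible windows are the valleys, which gave 742 valleys of 7420 eligible windows, out of 12447 windows on 16 chromosomes. They were chosen by their IP signal in Pk-tagged wild type without a break, so the values of that library are a description and support nothing below. In it the 3 valleys nearest the limit all had a signal of 3.76, and the 3 windows just above it had 3.76, 3.76 and 3.77. The medians were 3.08 over valleys and 9.04 over the other eligible windows.

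Cohesin is a ring of proteins that holds sister chromatids together from S phase until anaphase and also folds chromosomes into loops. In budding yeast a loader complex places it on chromatin, and it builds up around centromeres and at sites along the arms, often between convergent genes, so that stretches in between carry little of it. Pds5 binds the ring and takes part both in keeping it on chromatin and in releasing it. Rad17 is a subunit of the checkpoint clamp that is loaded at damaged DNA.

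Chromatin immunoprecipitation sequencing (ChIP-seq) was done 4 h after galactose addition, which induces a site-specific double-strand break, in strains of W303. Candida glabrata served as the internal calibrator, per the labels. With the anti-HA antibody, Scc1-6HA was measured with a break in rad17 pds5-AID, pds5-AID, rad17 and wild-type cells (2 libraries each) and in wild type whose break site is uncleavable (1 library). An untagged strain with a break (1 library) gave the floor. All of these were in nocodazole, which removes microtubules and holds cells in mitosis. With the anti-Pk antibody, Scc1-PK9 was measured once each in rad17 (break, nocodazole), wild type (break, nocodazole), wild type (break only) and wild type (uncleavable site, nocodazole). pds5-AID is a degron allele, and since no auxin is named in the labels, the depth of Pds5 depletion is unknown here. The treatment entry of the HA library without a break names break induction, against its title, and the title was followed. Whether replicates are separate cultures is not stated, so p-values reflect only library-to-library spread that may be technical.

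Depth limits what can be said of valleys. With the smallest value above 0 in each library taken as 1 read, median coverage per window was 25.9 to 82.0 reads over the HA libraries, 36.7 in the untagged IP, 43.3 in Pk rad17 and 50.5 in Pk wild type with a break. It was 9.28 in the Pk library that chose the valleys and 2.29 in the Pk library without nocodazole, where the median valley rested on 1.33 reads and 299 valleys were at or below 1 read. How the authors averaged coverage within a window is not described, so the lowest windows may be overstated. The signal was uneven in 3 extracts, with an SD of log2 signal over eligible windows of 0.434 to 0.718, against 0.184 to 0.237 in the other 11. These were the extracts of HA wild type with a break replicate 2, HA wild type without a break and Pk wild type without a break. Their signals ran together over windows (Pearson's r of 0.883 to 0.931, across windows that are not independent). IP signal was compared without division by extract, which entered only as an alternative, because valleys lie on chromosomes other than the broken one.

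Valleys carried less Scc1 than the rest of the arms in every tagged IP that the rule did not use, and more than the untagged floor. Median IP signal over valleys, in calibrated coverage per window, was 3.23 and 3.63 in HA rad17 pds5-AID, 4.47 and 5.69 in HA pds5-AID, 4.87 and 5.91 in HA rad17, 6.40 and 6.91 in broken HA wild type, and 6.09 in HA wild type without a break. The other eligible windows had medians of 6.31 and 7.62 in HA rad17 pds5-AID, 9.505 and 13.4 in HA pds5-AID, 10.5 and 12.9 in HA rad17, 15.6 and 17.1 in broken HA wild type, and 14.1 without a break. The untagged IP had 1.79 over valleys and 2.02 over the other windows. Valleys of the double mutant were thus lowest and those of wild type highest, and the ranges of the 4 broken HA genotypes overlapped only between pds5-AID and rad17.

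In each of the 9 HA libraries between 738 and 742 of the 742 valleys exceeded the same window of the untagged IP. The median over valleys was 1.81 and 2.03 times the untagged median in HA rad17 pds5-AID, 2.50 and 3.18 times in HA pds5-AID, 2.72 and 3.31 times in HA rad17, 3.58 and 3.87 times in broken HA wild type, and 3.41 times without a break. In the limma fit across all 11630 kept windows (Benjamini-Hochberg adjusted p under 0.05), 742 of 742 valleys were higher in HA wild type with a break than in the untagged IP, where 100% of all windows were higher and 0% lower. The median difference was 1.97 on the log2 scale over valleys, against 5.36 over the strong sites, the 742 eligible windows with the highest signal in the library that chose the valleys. The 5 valleys with the largest differences were chr10:502001-503000, chr16:329001-330000, chr4:1170001-1171000, chr10:202001-203000 and chr11:377001-378000, with log2 differences of 3.14 to 3.76. At the first the signal was 8.37 and 10.4 in broken HA wild type and 0.646 untagged, and its extract was 0.281 times the library median. Since 11628 of all 11630 windows were higher, the count says nothing particular to valleys, and there was only 1 untagged library.

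**Figure D1:**
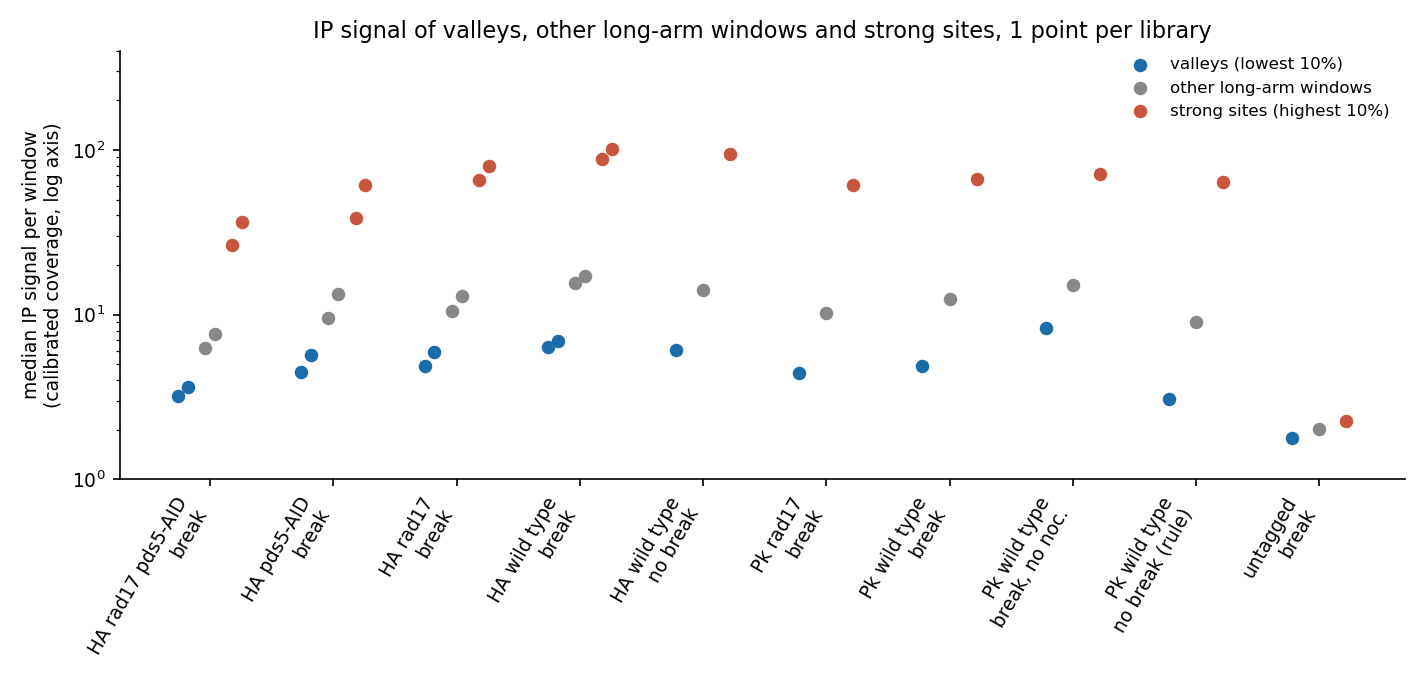
Median IP signal per window (calibrated coverage, log axis) over valleys, other long-arm windows and strong sites, 1 point per IP library, with the double mutant at the left and the untagged strain at the right. Valleys lie below the other windows in each tagged library, which the rule fixed in Pk wild type without a break. In the HA libraries they lie at 1.81 to 3.87 times the untagged valley median of 1.79.

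The depth of the valleys was similar in all HA genotypes once the floor was taken off. Valley signal on the log2 scale, relative to the other eligible windows of the same library, was -0.96 ± 0.07 in HA rad17 pds5-AID, -1.09 ± 0.10 in HA pds5-AID, -1.05 ± 0.01 in HA rad17 and -1.21 ± 0.01 in HA wild type with a break (mean ± SD, n = 2 each). It was -1.13 in HA wild type without a break (n = 1) and -0.16 in the untagged IP (n = 1). After subtraction of the untagged IP window by window, the median valley held 33.6% and 33.2% of the signal of the other windows in HA rad17 pds5-AID, 35.8% and 33.8% in HA pds5-AID, 35.2% and 36.7% in HA rad17, 33.1% and 33.0% in broken HA wild type, and 34.6% in unbroken HA wild type. All 9 values lay between 33.0% and 36.7%, with the 2 wild-type libraries with a break lowest and the ranges of pds5-AID and rad17 overlapping. The floor was 1 untagged library with a valley median of 1.79. In HA rad17 pds5-AID the median valley signal left above it was only 1.42 and 1.82. How far an error in the floor would move these shares was not tested. Relative to strong sites the picture was different: floor-subtracted valley signal was 5.88% and 5.27% of strong-site signal in HA rad17 pds5-AID, 7.31% and 6.52% in HA pds5-AID, 4.67% and 5.15% in HA rad17, 5.26% and 5.08% in broken HA wild type, and 4.52% in unbroken HA wild type. The 2 pds5-AID libraries were above the other 7.

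**Figure D2:**
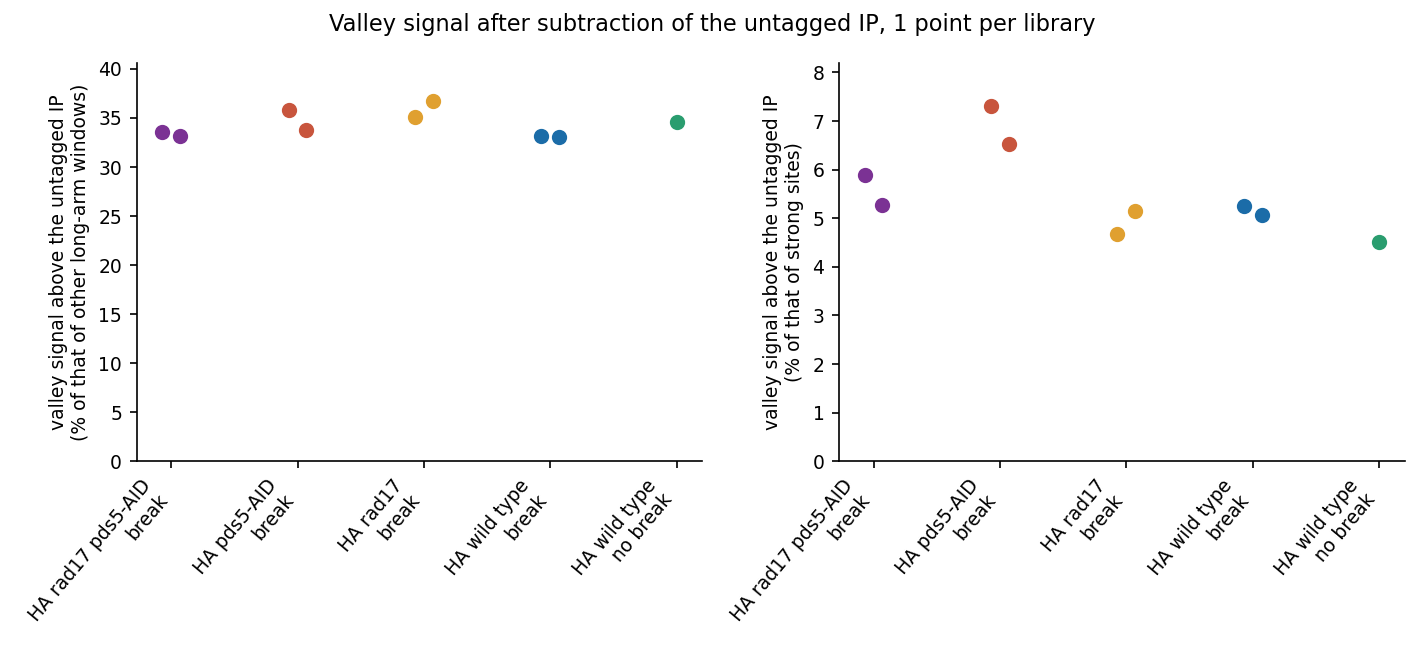
Valley signal left after subtraction of the untagged IP, as a percent of the same quantity over other long-arm windows (left) and over strong sites (right), 1 point per HA library, both axes from 0. On the left all 9 libraries lie between 33.0% and 36.7%, and on the right the pds5-AID libraries lie highest at 7.31% and 6.52%.

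The windows low in the Pk library were mostly low in the HA libraries too. The lowest 10% of eligible windows of an HA library held 51.6% and 52.3% of the valleys in rad17 pds5-AID, 55.7% and 55.4% in pds5-AID, 59.3% and 59.6% in rad17, 59.8% and 60.5% in wild type with a break and 60.6% without a break. The untagged IP had 31.1% of the valleys in its lowest 10%, and also 32.1% of them in its upper 50%, so the floor was split over the valleys. Over all 9 HA libraries, 208 valleys (28.03%) were in the lowest 10% every time, 516 (69.5%) were in the lowest 25% every time, and 721 (97.2%) were below the long-arm median every time. At the other end, 119 valleys (16.04%) were in the lowest 10% of no HA library, and 21 were above the long-arm median in at least 1. Looked at from the HA side, 261 eligible windows were in the lowest 10% of all 9 HA libraries, and 79.7% of them were valleys by the Pk rule.

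Valleys lay as single windows and short runs. The 742 windows formed 503 runs, of which 344 were single windows (46.4% of valleys) and 53 were runs of at least 3 windows, with 186 valleys (25.1%). The untagged IP was less low in the long runs: its lowest 10% held 20.4% of the valleys in runs of at least 3, against 36.6% of the single ones, while the lowest 10% of HA wild type with a break replicate 1 held 63.4% of the valleys in such runs, against 54.4% of the single ones. The 5 longest runs were chr15:615001-622000 (7 windows), chr4:1134001-1140000 (6 windows), and chr14:135001-140000, chr13:729001-734000, and chr14:675001-680000 (5 windows each). Coordinates are those of the deposited windows. They follow a build not given in the sources used here, so no gene or sequence was placed in them.

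The longest run, on chromosome 15 from 615001 to 622000, lay 285 kb from the centre and had a mean signal of 3.57 and 3.99 in HA rad17 pds5-AID, 4.76 and 6.04 in HA pds5-AID, 4.61 and 5.63 in HA rad17, 5.88 and 6.37 in HA wild type with a break, 6.17 in HA wild type without a break and 2.44 in the untagged IP. Its extract was 1.0203 times the library median, so input DNA was not low there. The deepest of the 5 by mean rank in the HA libraries was on chromosome 14 from 135001 to 140000, with 2.86 and 3.28 in HA rad17 pds5-AID, 3.77 and 4.53 in HA pds5-AID, 4.06 and 4.89 in HA rad17, 5.06 and 5.73 in HA wild type with a break, 5.20 in HA wild type without a break and 1.73 in the untagged IP. In both runs the double mutant was lower than the other 3 broken genotypes in both replicates, and pds5-AID and rad17 overlapped.

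At a few valleys the HA signal came close to the floor. The 5 lowest by mean rank over the 9 HA libraries were chr14:521001-522000, chr4:369001-370000, chr11:69001-70000, chr4:885001-886000, and chr15:990001-991000. The one at chromosome 14, 521001 had a signal of 0.901 and 0.526 in HA rad17 pds5-AID, 0.812 and 0.725 in HA pds5-AID, 0.615 and 0.972 in HA rad17, 0.473 and 0.830 in HA wild type with a break, 0.619 without a break and 0.491 untagged. Its extract was 0.407 times the library median, and that of chromosome 4, 885001 was 0.354 times. The other 3 had 0.767, 0.849 and 1.01 times. The one with full extract, at chromosome 15, 990001, had 1.38 and 1.11 in HA rad17 pds5-AID, 1.44 and 0.965 in HA pds5-AID, 1.66 and 1.81 in HA rad17, 1.46 and 1.51 in HA wild type with a break, 1.03 without a break and 0.692 untagged. The 2 rad17 libraries were highest there, and the double mutant and pds5-AID overlapped.

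The valleys that agreed least with the HA libraries were chr15:623001-624000, chr2:275001-276000, chr7:131001-132000, chr2:146001-147000, and chr16:755001-756000, at mean percentile ranks of 40.2 to 42.6, where 50 is the long-arm median. The window at chromosome 15, 623001 lies 1 kb past the end of the longest run; it had 6.84 and 7.36 in HA rad17 pds5-AID, 9.55 and 11.6 in HA pds5-AID, 7.76 and 9.47 in HA rad17, 11.1 and 11.1 in HA wild type with a break, 10.3 without a break and 3.24 untagged. The window at chromosome 2, 275001, which lies 32 kb from the centre, had 8.99 and 11.3 in HA rad17 pds5-AID, 12.4 and 18.2 in HA pds5-AID, 7.64 and 6.74 in HA rad17, 9.37 and 7.71 in HA wild type with a break, 7.62 without a break and 3.12 untagged. It was higher in both pds5-AID libraries than in any library with intact Pds5, and is taken up again with the pds5 comparison.

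Signal was higher on both sides of a valley within a few kb. In HA wild type with a break replicate 1 the median log2 signal relative to the long-arm median was -1.07 at the valley, -0.76 at 1 kb on both sides, -0.36 and -0.38 at 2 kb to the left and right, 0.31 at 6 kb to the left and 0.17 at 6 kb to the right. In the untagged IP it was -0.15 at the valley and -0.03 and -0.02 at 1 kb, so the floor was lower at the valley window itself and near the long-arm median at its neighbours, while the tagged IP was low over several windows. The nearest strong site lay a median of 6 kb from a valley, against 4 kb from windows of the middle 80%, and 6.74% of valleys had one within 2 kb, against 28.6% of the middle windows; the rule, which used the same library for both sets, fixes part of this.

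**Figure D3:**
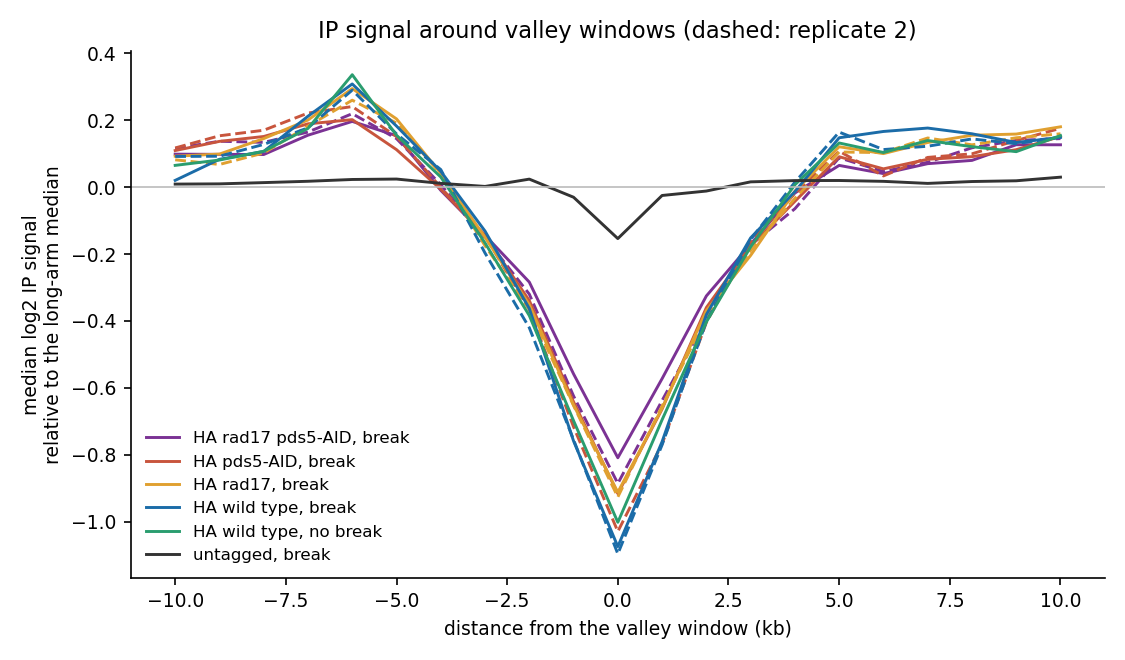
Median log2 IP signal relative to the long-arm median (vertical axis) against the distance from the valley window in kb (horizontal axis), for the 9 HA libraries and the untagged IP, replicate 2 dashed. The HA lines fall to between -0.81 and -1.10 at the valley and return to 0 at about 4 kb, and the untagged line falls to -0.15 at the valley only.

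Some valleys went with low input. Extract below 0.75 of its median was found at 49 valleys (6.60%) and at 1.17% of the other eligible windows, and at those valleys the untagged median was 1.04, against 1.82 at the rest of the valleys. In addition 36 valleys (4.85%), against 0.854% of the other windows, lay next to a window that the extract filter had left out. Over all valleys the extracts were not low: the median log2 difference from the other windows was 0.04 to 0.09 in 11 extracts and 0.18 to 0.29 in the 3 uneven ones. How far low input set the choice of single valleys was not tested. The share of eligible windows that were valleys ran from 7.49% on chromosome 8 to 12.0% on chromosome 14.

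No valley passed the test between cells with and without a break. Comparing HA wild type with a break (n = 2) with HA wild type without one (n = 1, assumed to vary like the other groups), limma called 0 valleys higher and 0 lower (24 valleys at an unadjusted p under 0.05), against 0.206% of all kept windows higher and 0% lower. The median log2 difference was 0.17 over valleys and 0.16 over all eligible windows. The typical standard error of a valley's difference was 0.32, and that of a strong site's 0.44, so small changes were not detectable with these libraries. With each library set relative to its long-arm median, again 0 valleys were called in either direction (23 at an unadjusted p under 0.05), against 0.576% of all windows higher and 0.232% lower. With IP divided by its extract there were calls in both directions: 40 valleys higher (5.39%) and 9 lower (1.21%), against 2.39% of all windows higher and 2.48% lower, and, relative to the long-arm median, 35 higher and 34 lower, against 6.96% and 12.2% of all windows. The uneven extracts described above enter this division on both sides, and their part in these calls was not tested.

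In rad17 cells the valleys had lower medians, as the rest of the arms did, and 3 single valleys passed the test. The median log2 difference, rad17 minus wild type, was -0.35 over valleys, -0.44 over all eligible windows and -0.37 over strong sites, and 710 of 742 valleys had a negative difference. The valley median was -0.20 without rad17 replicate 1 and -0.51 without rad17 replicate 2. Limma called 1 valley higher and 2 lower, against 0.0172% of all windows higher and 0.628% lower. The 2 lower ones were on chromosome 4: the window 669001 to 670000 had 0.819 and 0.825 in HA rad17 cells and 2.42 and 5.21 in HA wild type with a break, a log2 difference of -1.68 ± 0.27 (SE, limma adjusted p = 1.04e-06), and the window 1105001 to 1106000 had 1.80 and 1.80 in HA rad17 cells and 5.10 and 3.17 in HA wild type with a break (-1.04 ± 0.26, limma adjusted p = 0.019). Their extracts were 0.361 and 0.306 times the library median, wild type without a break had 1.79 and 2.19 there, and neither passed once libraries were set relative to the long-arm median (limma adjusted p = 0.18 and 0.487). Lower calls rose without either of the pds5-AID libraries, both over valleys and over all windows. They fell in both sets without rad17 replicate 1 or either library of HA wild type with a break. Without rad17 replicate 2 they rose over valleys and fell over all windows. Without either double mutant library they fell over all windows only. The higher one, on chromosome 13, is described last.

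In pds5-AID cells the median fall was smaller over valleys than over strong sites. The median log2 difference, pds5-AID minus wild type, both with a break, was -0.38 over valleys, -0.55 over all eligible windows and -0.94 over strong sites. Limma called 140 valleys lower (18.9%) and 1 higher, against 37% of all windows lower and 0.0258% higher; among strong sites 435 were lower (58.6%). The valleys' share was thus below the background share. The signals compared include the untagged floor, which is a larger part of the signal in valleys, and its part in the lower share was not tested. The 5 valleys that fell most, one per run, were chr10:181001-182000, chr15:905001-906000, chr13:378001-379000, chr16:329001-330000, and chr15:955001-956000, with log2 differences of -1.27 to -1.13. The first had 4.18 and 4.04 in HA pds5-AID and 9.42 and 11.6 in HA wild type with a break (-1.27 ± 0.26 SE, limma adjusted p = 3.57e-05), with 8.26 in HA wild type without a break and 1.66 untagged. The groups did not overlap, and its signal in pds5-AID stayed above the floor. The valley median was -0.22 without pds5-AID replicate 1 and -0.55 without pds5-AID replicate 2. Over all eligible windows the median was -0.33 without pds5-AID replicate 1 and -0.79 without pds5-AID replicate 2. The count rests on few libraries. It fell without pds5-AID replicate 1 or either wild-type library and rose without pds5-AID replicate 2, and the share of all windows moved likewise.

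The 1 valley called higher in pds5-AID was the window at chr2:275001-276000, whose levels are given above. Its log2 difference from wild type was 0.75 ± 0.28 (SE, limma adjusted p = 0.0265), and 1.27 relative to the long-arm median (limma adjusted p = 1.75e-05). The 2 pds5-AID libraries and the 2 wild-type libraries did not overlap, nor did the double mutant and rad17. With a pseudocount of 20%, and also without moderation of variances, the window was not called in the calibrated fit. The call was lost when pds5-AID replicate 2 or either wild-type library was left out.

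In cells without Rad17 most valleys were lower with pds5-AID than without it. The median log2 difference, rad17 pds5-AID minus rad17, was -0.62 over valleys, -0.76 over all eligible windows and -1.20 over strong sites. Limma called 473 valleys lower (63.7%) and 0 higher, against 68.9% of all windows lower and 0.0172% higher, and 638 strong sites lower (86.0%). After the chromosome 13 window the largest falls were at chr10:181001-182000, with 2.26 and 2.98 in HA rad17 pds5-AID and 6.54 and 7.97 in HA rad17 (-1.41 ± 0.26 SE, limma adjusted p = 1.59e-06), chr10:197001-198000 (-1.40), chr13:378001-379000 (-1.32), and chr11:100001-101000 (-1.27). The count of lower valleys fell most without rad17 pds5-AID replicate 1 or rad17 replicate 2, as did the share of all windows. The median was then -0.54 and -0.49 over valleys, and -0.64 and -0.62 over all eligible windows.

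Valleys were also lower in the double mutant than in pds5-AID, by an amount that depended on single libraries. The median log2 difference was -0.57 over valleys, -0.66 over all eligible windows and -0.63 over strong sites. In the same order it was -0.74, -0.92 and -0.97 without pds5-AID replicate 1 and -0.42, -0.42 and -0.29 without pds5-AID replicate 2, so the order of the sets turned. Limma called 358 valleys lower (48.2%) and 0 higher, against 50.5% of all windows lower and 0.0258% higher. The largest falls were at chr2:520001-521000, with 3.96 and 5.19 in HA rad17 pds5-AID and 10.04 and 11.8 in HA pds5-AID (-1.23 ± 0.27 SE, limma adjusted p = 0.000743), then at chr10:200001-201000 (-1.18), chr10:202001-203000 (-1.07), chr11:631001-632000 (-1.05) and chr8:315001-316000 (-1.05). The count moved more, and the share of all windows moved with it. Both fell most without pds5-AID replicate 2 or rad17 pds5-AID replicate 1. They also fell without rad17 pds5-AID replicate 2 or either wild-type library, and rose without pds5-AID replicate 1.

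Set relative to the long-arm median of each library, the median valley was slightly higher and the median strong site lower in both comparisons with pds5-AID. The median centred log2 difference, pds5-AID minus wild type, was 0.14 over valleys, -0.02 over the middle 80% and -0.41 over strong sites. Limma called 81 valleys higher (10.9%) and 15 lower (2.02%), against 13.3% of all windows higher and 21.5% lower. Of the strong sites 369 were lower and 10 higher. In the double mutant against rad17 the median was 0.10 over valleys and -0.47 over strong sites, with 54 valleys higher and 9 lower, against 9.63% of all windows higher and 22.6% lower. Leaving out 1 library at a time, the valley median ran from 0.07 to 0.21 in the first comparison and from 0.06 to 0.15 in the second. Both pairs of counts fell with single libraries left out, as did the shares of all windows. The first fell without either pds5-AID library or wild-type replicate 2, and the second without rad17 pds5-AID replicate 1 or either rad17 library. For rad17 minus wild type the centred median was 0.15 over valleys and 0.12 over strong sites, and limma called 3 valleys higher and 0 lower, against 0.413% of all windows higher and 0.482% lower. For the double mutant minus pds5-AID it was 0.12 over valleys and 0.06 over strong sites, with 1 valley higher and 0 lower, against 0.181% of all windows higher and 0.886% lower. The last 2 medians depended on single libraries: the valley median was 0.04 without pds5-AID replicate 2 and 0.20 without pds5-AID replicate 1, and the strong-site median turned to -0.03 without pds5-AID replicate 1 and to -0.05 without rad17 pds5-AID replicate 2. That 1 call was lost without any one of the 4 pds5-AID and double mutant libraries, and the 3 for rad17 came down to 1 without rad17 replicate 2. These centred values include the untagged floor. After its subtraction, as given above, valleys held 33.0% to 36.7% of the signal of the other windows in all HA libraries. The pds5-AID libraries (35.8% and 33.8%) were then still above wild type with a break (33.1% and 33.0%). The double mutant (33.6% and 33.2%) was below rad17 (35.2% and 36.7%), so in that comparison the direction turned. Both results rest on the same single untagged library.

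**Figure D4:**
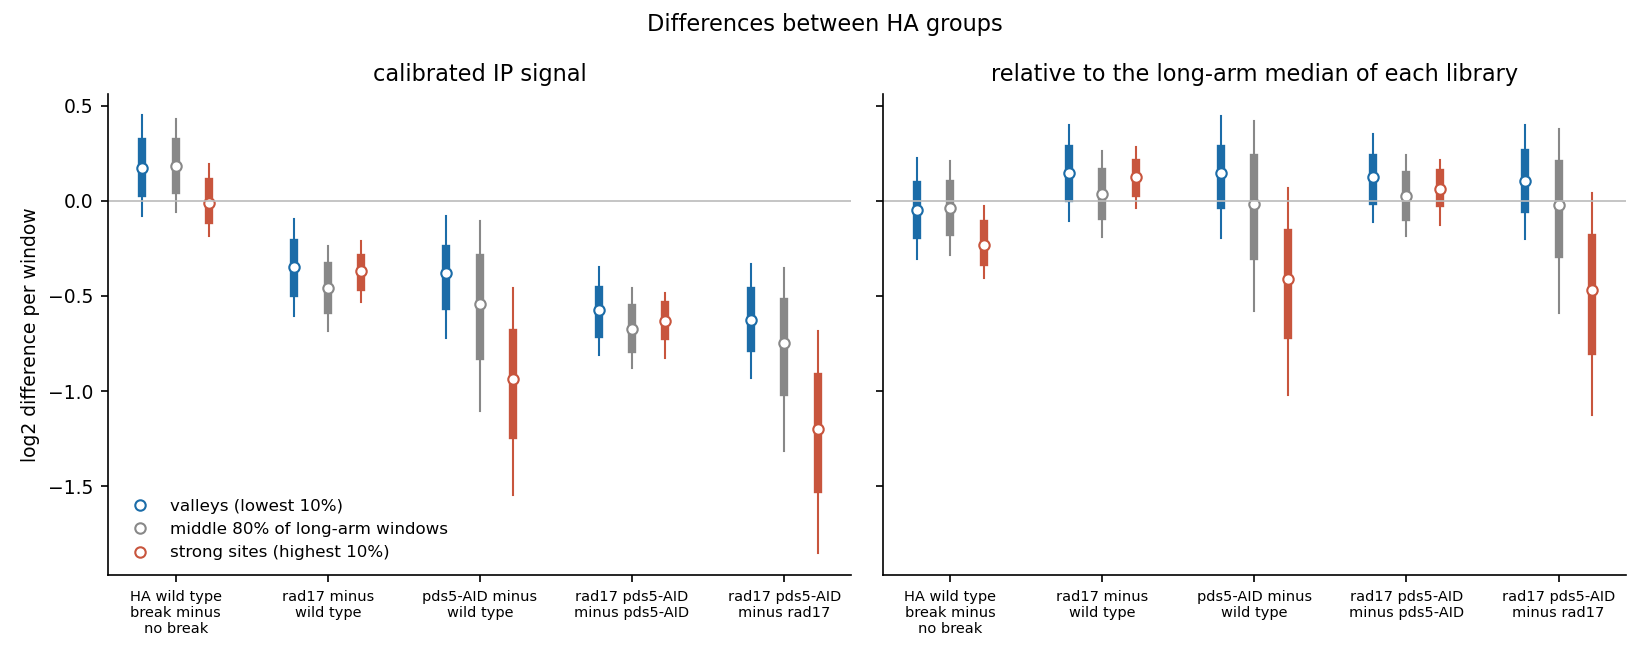
Log2 difference per window between HA groups (vertical axis), for calibrated signal (left) and for signal relative to the long-arm median of each library (right), in 5 comparisons named with the mutant or broken group first. Points are medians, thick bars the middle 50% and thin lines the middle 80% of windows; in both comparisons with pds5-AID on top, the valley medians (-0.38 and -0.62) were nearer 0 than those of strong sites (-0.94 and -1.20).

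The 2 comparisons of pds5-AID with intact Pds5, with and without Rad17, share no library. Of the 140 valleys lower in pds5-AID, 126 were also lower in the double mutant against rad17, which is 90% of the first list and 26.6% of the 473 of the second, where 63.7% of all valleys were lower. Over all kept windows 4170 of 4306 were shared (96.8%). Of the 81 valleys higher relative to the arms in pds5-AID, 20 were higher in the other comparison too (24.7% of 81 and 37.0% of 54), against 765 of 1543 over all kept windows (49.6%). Both shares were thus smaller among valleys than over all windows, and the difference was not tested.

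The medians changed little with distance from the centre. In pds5-AID against wild type the median log2 difference was -0.31 over the 108 valleys at 30 to 100 kb, -0.42 over 183 at 100 to 200 kb, -0.40 over 260 at 200 to 400 kb and -0.38 over 191 beyond 400 kb, and in all eligible windows it was -0.45, -0.57, -0.57 and -0.57. Relative to the arms, the valleys called higher were 17.6% of those at 30 to 100 kb, 12.0% at 100 to 200 kb, 11.2% at 200 to 400 kb and 5.76% beyond 400 kb, and the eligible windows called higher were 18.4%, 11.2%, 11.2% and 9.48%.

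Valleys were also below the other windows in the Pk libraries that the rule did not use, of which there was 1 per group and so no test. Median valley signal was 4.44 in Pk rad17 with a break, 4.89 in Pk wild type with a break and 8.26 in Pk wild type without nocodazole, the last at 1.33 reads per valley. The other eligible windows had 10.2 in Pk rad17, 12.4 in Pk wild type with a break and 15.05 without nocodazole. After subtraction of the untagged IP, which was made with the anti-HA antibody, the median valley held 31.0% of the signal of the other windows in Pk rad17, 29.3% in Pk wild type with a break and 47.4% in the shallow library without nocodazole, all outside the 33.0% to 36.7% of the HA libraries. The median log2 difference, Pk rad17 minus Pk wild type with a break, was -0.14 over valleys, -0.25 over the middle 80% and -0.13 over strong sites, and 2 valleys were over 2-fold higher and 0 over 2-fold lower, against 0.0516% of all windows over 2-fold higher and 0.421% over 2-fold lower. The lowest 10% of eligible windows held 58.6% of the valleys in Pk rad17, 56.7% in Pk wild type with a break and 40.3% in the shallow library without nocodazole.

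A single valley, on chromosome 13 from 754001 to 755000 and 483 kb from the centre, was high in rad17 cells alone. Its IP signal was 2.44 and 4.27 in HA rad17 pds5-AID, 4.33 and 6.55 in HA pds5-AID, 37.4 and 36.6 in HA rad17, 8.56 and 10.2 in HA wild type with a break, 7.49 in HA wild type without a break and 1.62 untagged. With the other tag it was 21.9 in Pk rad17, 5.46 in Pk wild type with a break and 7.74 without nocodazole. The 3 rad17 libraries with Pds5 intact thus stood above all other IP libraries, and both double mutant libraries were below every wild-type library of that tag. The log2 difference, rad17 minus wild type, was 1.89 ± 0.27 (SE, limma adjusted p = 1.52e-08), and rad17 pds5-AID minus rad17 was -3.40 ± 0.27 (limma adjusted p = 1.6e-31). This SE is the trend value for windows of like signal, not the spread of this window's own libraries. Without moderation of variances 0 valleys were called higher in rad17, for calibrated or centred signal, so the call for this window was lost. The window to its right had 5.10 and 6.15 in HA rad17 pds5-AID, 16.7 and 15.9 in HA rad17, and 10.8 and 9.77 in broken HA wild type. With the other tag it had 9.34 in Pk rad17 and 5.35 in Pk wild type with a break. The window to its left was at or near 0 in all libraries, extracts included, and was left out by the extract filter, so it is not known how far the high signal reached on that side. The extract at the valley itself was between 0.847 and 1.11 times the library median in all 14 extracts. The sample titles give tag and genotype and name no independent strains of a genotype. The genotype and other features of a strain thus cannot be told apart. With both tags rad17 cells with intact Pds5 had the high signal.

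**Figure D5:**
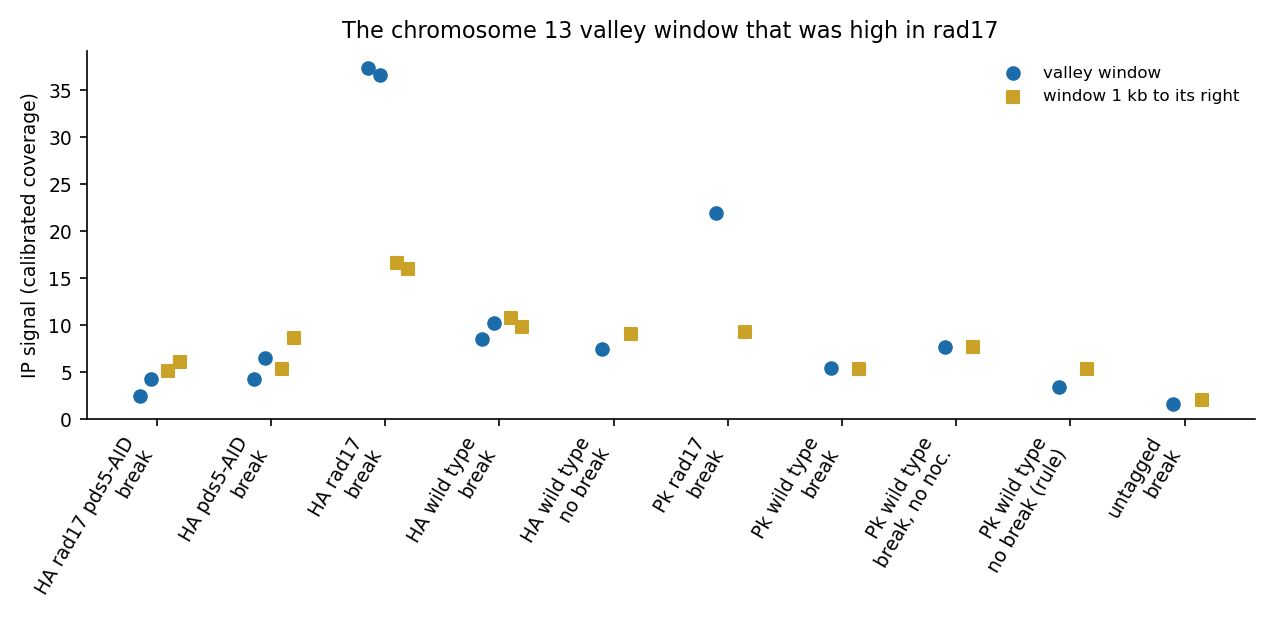
IP signal (calibrated coverage) of the chromosome 13 valley window and of the window 1 kb to its right, 1 point per IP library. The valley window reaches 37.4 and 36.6 in HA rad17 and 21.9 in Pk rad17, and stays at or under 10.2 in all other libraries.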

How the data were processed

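Scc1 ChIP-seq was read from 28 libraries, 14 IPs and 14 extracts. The authors deposited read coverage as signal in windows of 1 kb, with no header. The submitters' processing notes list MACS2, Bowtie2, bedtools and SAMtools without roles or versions, and name no genome build. The series description states calibration with Candida glabrata. Per the deposited values, a window's signal is a ratio of whole numbers with a varying denominator (median 363, highest 818 in the 1 extract checked), which is neither the window length nor a fixed number. The averaging behind it is not described. Extracts were unscaled, with 1 as the smallest value above 0.

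The valleys, the comparisons and the lists were chosen with earlier results of these data known. Named valleys followed a rule: the 5 longest runs, the 5 lowest and 5 highest by mean rank in the HA libraries, and up to 5 called per comparison and direction, 1 per run. Over 11630 windows with an extract of 0.25 to 4 times its median, log2(IP signal + 5% of the library median) was fitted with limma 3.58.1 (R 4.3.3, moderated variances with a trend, 6 groups of 10 anti-HA IPs, 4 residual degrees of freedom, prior degrees of freedom infinite), with Benjamini-Hochberg adjustment and a threshold of 0.05. Differences of low windows are understated on this scale. With infinite prior degrees of freedom, a window's SE is the trend value for its signal and not its own spread. A second fit of the 9 HA libraries used values relative to each library's long-arm median. The fit was checked on simulated data with independent noise in each window and library. Shifts shared by a whole library were not simulated, so the check does not bear on them. Alternatives were the division by extract, a pseudocount of 20%, other member rules, no trend, no moderation, a replicate block and each library left out; centres from the HA library, valleys with an extract of at least 0.75 and the test of the difference between comparisons were added after seeing the data. Replicate numbers are not shown to pair the libraries. Intervals on depth were not given, since reads per base are not independent counts.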

Additional observations from a re-analysis of the deposited data

Results flagged for a closer look

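The chromosome 13 valley from 754001 to 755000 drew attention because the effect of pds5-AID on it differed between cells without and with Rad17. The difference of the log2 differences, rad17 pds5-AID minus rad17 less pds5-AID minus wild type, was -2.61 ± 0.39 for calibrated signal (SE, limma adjusted p = 1.53e-07) and -2.41 ± 0.23 relative to the long-arm median (limma adjusted p = 0.000103). This test was added after seeing the data, and it shares the rad17 libraries with the comparisons that first showed the window. It called no other valley. Of all windows it called 0% higher and 0.0172% lower in the calibrated fit, and 0.0516% higher and 0.0688% lower in the other. At an unadjusted p under 0.05 there were 13 valleys in the calibrated fit and 20 in the other.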

How the results depend on the processing

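The shares of valleys called, as percent of valleys, moved with the variance model, the input and single libraries. With IP divided by its extract they were, for calibrated signal, 6.60% for the break (5.39% higher and 1.21% lower, against 2.39% and 2.48% of all windows) and 6.33% for rad17 (6.20% lower, against 5.20% of all windows), and, relative to the long-arm median, 9.30% for the break, 0.404% for rad17 (with 2 of 3 calls lower, so the direction turned), 7.28% for pds5-AID and 2.02% for the double mutant against rad17; the cause was not tested. With that division, centred calls over all windows were 6.96% higher and 12.2% lower for the break, and 0.112% and 0.0688% for rad17. They were 7.61% higher and 14.8% lower for pds5-AID, and 3.23% and 14.4% for the double mutant against rad17. Without moderation of variances, 4 degrees of freedom are left per window. Calibrated calls were then 0% for rad17, pds5-AID and the double mutant against pds5-AID, against 0%, 0.0086% and 0% of all windows. For the double mutant against rad17 they were 9.16%, against 13.6% of all windows. Centred calls were 0%, 4.18%, 0% and 2.83% in that order. Of all windows, 6.23% were higher and 12.4% lower for pds5-AID, and 4.62% and 12.4% for the double mutant against rad17. Those shares were 0.0172% and 0.0086% for rad17, and 0% and 0% for the double mutant against pds5-AID. With no trend the centred calls were 0.674% for rad17, against 0.310% of all windows higher and 0.387% lower. For the double mutant against pds5-AID they were 0.270%, against 0.138% of all windows higher and 0.731% lower. With a pseudocount of 20% the calibrated calls of that comparison were 73.6%, against 63.8% of all windows. With IP over extract these were 40.7% against 30.3%. Under both settings the valleys were thus above the background share, where they were below it as reported (48.2% against 50.5%). They were also above it with the lowest 20% as valleys (50.7% against 50.5%) and with some single libraries left out. For the double mutant against rad17 the reported shares were 63.7% against 68.9%. There too valleys were above background with a pseudocount of 20% (78.3% against 74.5%) and with valleys chosen by IP over extract (70.1% against 68.9%). For rad17 the calibrated share was 0.202% with the lowest 20% as valleys. It was 0.135% with valleys chosen by IP over extract and 0.144% with an extract of at least 0.75. In both of the last cases a single higher call was left, so the direction turned. Of all windows 0.0172% were higher and 0.628% lower under each of these rules. With valleys chosen by IP over extract the centred share of the double mutant against pds5-AID was 0%, against 0.181% of all windows higher and 0.886% lower.

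With a replicate block the calibrated shares were 38.4% for rad17, 45.3% for pds5-AID and 85.2% for the double mutant against pds5-AID, each below the share of all windows that were lower (62.1%, 67.6% and 95.4%). The numbers are shared, but the libraries are not shown to be paired: deviations of replicate 2 from 1 had r = 0.459 between wild type and rad17 and 0.411 between pds5-AID and the double mutant, and -0.05 to 0.06 otherwise. When single libraries were left out, the shares of all windows called moved too, for calibrated and for centred signal. The swings of the valley shares given next are thus not particular to valleys. Leaving out each library in turn gave calibrated ranges of 0% to 0% for the break, 0.135% to 4.85% for rad17, 1.08% to 38.3% for pds5-AID, 0.135% to 76.4% for the double mutant against pds5-AID, 9.97% to 71.7% for it against rad17 and 99.9% to 100% against the untagged IP. The centred ranges were 0% to 0.135%, 0.135% to 0.539%, 3.64% to 12.8%, 0% to 0.404% and 3.10% to 10.7% in the same order, the untagged IP aside.

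The valley level relative to the other windows stayed below 0 in every alternative. For HA wild type with a break it was -1.35 over extract, -1.004 with a pseudocount of 20%, -1.31 for the lowest 5%, -1.16 for the lowest 20%, -1.18 with valleys chosen by IP over extract or with an extract of at least 0.75, -1.60 after untagged subtraction and -1.55 from means. For HA rad17 it was -1.09, -0.88 and -1.13 for the first 3 of these, -1.01 with valleys chosen by IP over extract, -1.02 with an extract of at least 0.75, -1.48 after untagged subtraction and -1.45 from means. With a pseudocount of 20%, after untagged subtraction and from means it was -0.81, -1.58 and -1.23 for HA rad17 pds5-AID and -0.91, -1.52 and -1.32 for HA pds5-AID. For HA wild type without a break it was -1.61 over extract, -0.95 with a pseudocount of 20%, -1.22 for the lowest 5%, -1.53 after untagged subtraction and -1.56 from means, and the untagged IP had -0.23 from means. Valley medians rested on 14.3 to 37.1 reads in the HA libraries.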
